A study of Mus musculus with 3 samples.

Results

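Genes for the structural proteins of the extracellular matrix were examined in wild-type mouse embryos at the early head-fold (EHF) stage, whose embryonic region was measured on 3 arrays. The genes were taken by symbol: all symbols of the form of a collagen or laminin chain, and *Fn1*, *Nid1*, *Nid2*, *Hspg2*, *Sparc*, *Agrn*, *Fbn1*, *Fbn2*, *Fbln1*, *Fbln2*, *Tnc*, and *Serpinh1*. This gave 61 of 30854 symbols in the table, namely 39 collagen chains, 10 laminin chains, and 12 other genes. *Lamb1*, *Col6a4*, *Col6a5*, *Col6a6*, and *Col26a1* stand in the table under other names and were not selected, and no symbol was matched to *Col11a2*. The embryos were of the strain given as Cd-1 in the sample labels and as ICR in the methods, carried no mutant allele, and received no treatment. They were bisected at the border between embryonic and extraembryonic tissue, and the embryonic part was kept. The 3 arrays form a single group, so no genotype, stage, or tissue can be compared, and their number limits the precision of each level. The sources leave unclear whether an array holds 1 embryo or several, so the spread between arrays may be in part technical.

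A basement membrane is a thin sheet of matrix on which epithelia rest, and at gastrulation it separates the epiblast from the endoderm and is breached where cells leave the epiblast. Laminins, trimers of an alpha, a beta, and a gamma chain, polymerize at the cell surface. Collagen IV, a trimer of alpha chains, forms a network of its own that holds the sheet together. Nidogens and the heparan sulfate proteoglycans perlecan (*Hspg2*) and agrin (*Agrn*) link these networks. Fibrillar collagens, fibrillins, and fibulins belong mainly to the connective tissue matrix that mesenchymal cells produce.

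Signals were deposited on the log2 scale, as an average over the probes of a symbol and without normalization between arrays. Each comes with a detection p. For a symbol with 1 probe it is the share of the negative-control probes of that array that were at least as bright. For a symbol with several probes it is a value combined over the probes. A gene was called when its detection p stayed under the limit of 0.01 on each of the 3 arrays. The background level of an array is the lowest signal with a detection p above 0 and under that limit among symbols with 1 probe, and was 6.69, 6.66, and 6.58 on replicates 1, 2, and 3. Replicate 3 was the dimmest array, and 7191 symbols met the limit there, against 9015 on replicate 1 and 8220 on replicate 2. Marker lists were used to see which other cells the dissected tissue could hold, and 20.6% of all symbols were called. Of 14 visceral endoderm markers, 13 were called, and the sum of their normalized signals was 11495, 14125, and 8748 on replicates 1, 2, and 3. Among 8 parietal endoderm markers 4 were called (*Cited1*, *Fst*, *Pth1r*, and *Sox7*), and the sums lay between 781 and 789. *Thbd*, *Srgn*, *Stra6*, and *Plat* were not called. Of these, *Stra6* had signals of 6.98, 6.82, and 6.81 and *Plat* 7.10, 7.16, and 6.89, each from several probes. Both genes passed the limma test given further below, at levels of 0.65 and 1.07 above background. Of 12 markers of extraembryonic ectoderm and trophoblast, 3 were called (*Cdx2*, *Rhox5*, and *Tfap2c*), with sums of 1119 to 1674 over the list. Another 8, *Elf5*, *Eomes*, *Ascl2*, *Gcm1*, *Esx1*, *Prl3d1*, *Prl2c2*, and *Tpbpa*, were called on no array, and *Hand1* met the limit on 2. Of 8 decidual markers only *Des* was called, with the 2 decidual prolactins *Prl8a2* and *Prl3c1* uncalled on every array, and sums of 56.1 to 72.1. None of 6 endothelial markers was called, whereas 2 of 4 blood markers (*Hbb-b1* and *Hba-a1*) and 5 of 8 mesodermal mesenchyme markers were.

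Of the matrix genes above background, 10 of 15 encoded collagen IV, laminins, nidogen, perlecan, or agrin, and 9 of the 19 members past the limma test of levels did. Those classes make up 20 of the 61 members, so 10 of these 20 were not called. In all, 15 of the 61 members (24.6%) were called, where 20.6% of all symbols were. The share was 6 of 39 for the collagen chains, 4 of 10 for the laminin chains, and 5 of 12 for the other genes. Of the 46 remaining members, 9 had a detection p under 0.01 on 1 or 2 arrays, and 37 on none. These 37 had mean signals between 6.37 and 6.71. After the normalization given below, their levels relative to background were -0.63 to 0.18, under it for all but *Fbln2*. Among members with 1 probe 9 of 22 (40.9%) were called, where the share of all symbols with 1 probe was 20.8%. Members with several probes were called in 6 of 39 cases (15.4%), where the share among all symbols with several probes was 20.1%. Neither difference was tested.

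**Figure D1:**
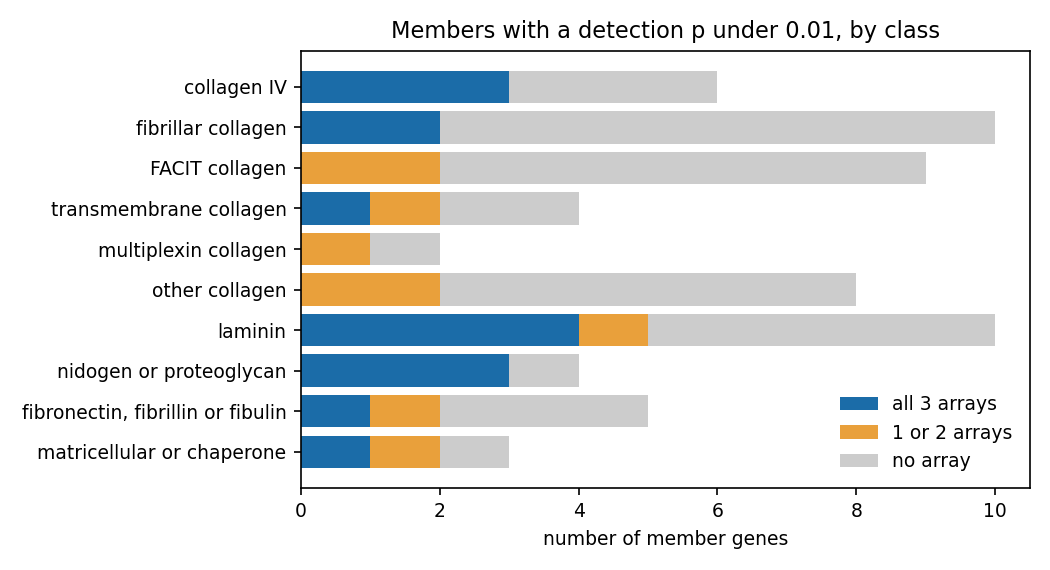
Number of member genes in each class (horizontal axis), split by the number of arrays with a detection p under 0.01 (blue, all 3 arrays; orange, 1 or 2; grey, none). Collagen IV, laminins, and the nidogen and proteoglycan class hold 10 of the 15 genes called on all arrays.

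To give each level an error, signals were background-corrected and quantile normalized, and the level was taken relative to the background level of the same array. That difference was tested with limma (one-sided, with Benjamini-Hochberg adjustment across the table). The test called 19 members (20 at an unadjusted p under 0.05), where 25.7% of all symbols were called. Of the 15 members called by detection, 14 passed, all but *Col4a5*. Another 5 passed without a detection call, *Col16a1*, *Col18a1*, *Col9a3*, *Fn1*, and *Sparc*. The moderated standard error was 0.15 for every gene, whatever the SD of its own levels, and the normalized background levels were 4.69, 4.81, and 5.06 on replicates 1, 2, and 3. For members well above background the largest adjusted p over the alternative settings is therefore given in place of the smaller value of the fit itself.

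Collagen IV chains were called for both genes of 1 pair, for 1 gene of another, and for neither gene of the third. The genes of this family lie in head-to-head pairs. *Col4a1* and *Col4a2* encode the chains of the trimer common to nearly all basement membranes. *Col4a1* had signals of 10.87, 10.92, and 10.13 on replicates 1, 2, and 3, with a detection p of 0 on each. *Col4a2* had 9.30, 9.16, and 8.78, also with a detection p of 0 throughout. All 6 values were well above the background level of their arrays, and both genes were dimmest on replicate 3. After normalization *Col4a1* was 5.72 above background (SD 0.32, n = 3) and *Col4a2* 4.01 (SD 0.14, n = 3). Adjusted p-values from limma were at most 0.000102 for *Col4a1* and 9.04e-05 for *Col4a2* in any setting tried.

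*Col4a5*, a chain of the collagen IV trimers of more specialized membranes, was close to background. Its signals were 6.89, 6.81, and 6.54, from several probes, with detection p-values of 5.71e-07, 9.13e-06, and 0.00116. The signal on replicate 3 was under the background level of that array although the combined detection p met the limit. In the limma test its level of 0.25 above background did not pass (adjusted p = 0.170), while without replicate 3 the level was 0.55 and the adjusted p from limma was 8.21e-05. Its neighbour *Col4a6* had detection p-values of 0.0866, 0.233, and 0.0311. *Col4a3* and *Col4a4*, the chains paired with *Col4a5* in kidney and other adult membranes, were not called on any array. Their mean signals were 6.38 and 6.50.

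The start regions of a pair with both genes called and of the pair with 1 gene called are shown. The sequences are those of RefSeq in the build GRCm38.p6. *Col4a1* and *Col4a2* are annotated on opposite strands of chromosome 8 with starts so close that their transcripts overlap by 22 bases. These bases are in capitals in the stretch chr8:11312801-11312830 (plus strand). *Col4a5* and *Col4a6* start 1343 bases apart on the X chromosome and are read away from each other. For these, the 250 bases before each start are given 5′ to 3′ on the strand of the gene, at chrX:141475169-141475418 (plus strand) for *Col4a5* and chrX:141474077-141474326 (minus strand) for *Col4a6*. Capitals there mark GGGCGG, the GC box, and the separate motif CCAAT, each searched on both strands.
Col4a1 and Col4a2 starts: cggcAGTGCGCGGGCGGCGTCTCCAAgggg
Col4a5 upstream: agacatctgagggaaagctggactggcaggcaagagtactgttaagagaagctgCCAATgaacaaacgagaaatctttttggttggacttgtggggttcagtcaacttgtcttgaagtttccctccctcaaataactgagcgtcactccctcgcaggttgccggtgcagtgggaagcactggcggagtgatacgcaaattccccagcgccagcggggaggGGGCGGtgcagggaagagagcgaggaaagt
Col4a6 upstream: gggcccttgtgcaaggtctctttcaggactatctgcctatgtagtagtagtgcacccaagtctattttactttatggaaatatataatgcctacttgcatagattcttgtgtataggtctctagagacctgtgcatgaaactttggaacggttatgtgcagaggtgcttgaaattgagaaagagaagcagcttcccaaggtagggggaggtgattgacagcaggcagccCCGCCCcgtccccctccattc

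*Col4a5* held 1 match to each motif, and *Col4a6* held 1 GC box and no CCAAT match. In the same window *Col4a1* held 0 GC boxes and 1 CCAAT, *Col4a2* held 2 GC boxes and 1 CCAAT, and *Col4a4* held neither motif. The printed overlap of *Col4a1* and *Col4a2* also contains GGGCGG, which lies past both starts and is not in these counts. Over the 250 bases before the start, a GC box was found in 10 of 13 promoters of called members (11 genes matched) and in 19 of 38 promoters of the others (33 genes matched). It was present in 32.7% of all 32851 promoters. The share over all called symbols was not taken, and the difference between called and other members was not tested. CCAAT was found in 3 of the 13, in 10 of the 38, and in 33.9% of all. The motifs share no overlapping match in the printed regions, and a match describes the letters only.

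Laminin chains above background, of 10 in all, comprised 2 alpha chains, 1 beta chain, and 1 gamma chain, where 20.6% of all symbols were called. *Lamc1*, the gamma chain of most laminins, had signals of 8.65, 8.39, and 8.12, each with a detection p of 0. *Lama1*, the alpha chain of the laminin of the early embryo, had 7.76, 7.78, and 7.76. *Lama5*, the alpha chain that is widespread in later epithelia, had 8.0, 7.46, and 7.48. All of these were above the background level on every array, by 3.18 for *Lamc1* (SD 0.14, n = 3), 2.33 for *Lama1* (SD 0.19, n = 3), and 2.14 for *Lama5* (SD 0.35, n = 3) after normalization. The largest adjusted p from limma over the settings was 0.00230, for *Lama5*.

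*Lamb2* was the single beta chain called and lay close to background. Its signals were 6.85, 6.77, and 6.67, with detection p-values of 0.00107, 0.00107, and 0. The level was 0.37 above background (SD 0.04, n = 3), with an adjusted p from limma of 0.0256 that rose to 0.120 without replicate 1 and to 0.189 without replicate 2. The beta 1 chain is listed under the older symbol *Lamb1-1*, which the selection by symbol does not reach. It was looked up after the other chains were seen. Its 1 probe gave signals of 6.64, 6.48, and 6.58, with detection p-values of 0.0395, 0.416, and 0.0107, so it was called on no array. *Lamb3*, a chain of the laminin of stratified epithelia, met the limit on replicate 1 only (detection p of 0.00107, 0.0107, and 0.231). *Lama2*, *Lama3*, *Lama4*, and *Lamc3* met it on none.

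Linkers of the basement membrane were above background for 3 of 4 genes, where 20.6% of all symbols were called. *Agrn* had signals of 11.68, 11.53, and 10.64, with a detection p of 0 on each array. *Nid2* had 9.05, 9.13, and 8.49, with a detection p of 0 as well. *Hspg2* had 8.27, 7.97, and 7.68, from several probes, with detection p-values of at most 4.39e-08. Each of these genes was dimmest on replicate 3. Relative to background the normalized levels were 6.39 for *Agrn* (SD 0.42, n = 3), 3.79 for *Nid2* (SD 0.25, n = 3), and 2.63 for *Hspg2* (SD 0.23, n = 3). *Nid1*, the other nidogen, was called on no array, with signals of 6.60, 6.54, and 6.41 from several probes. *Nid1* and *Nid2* are measured by different probes, so their signals were not set against each other.

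**Figure D2:**
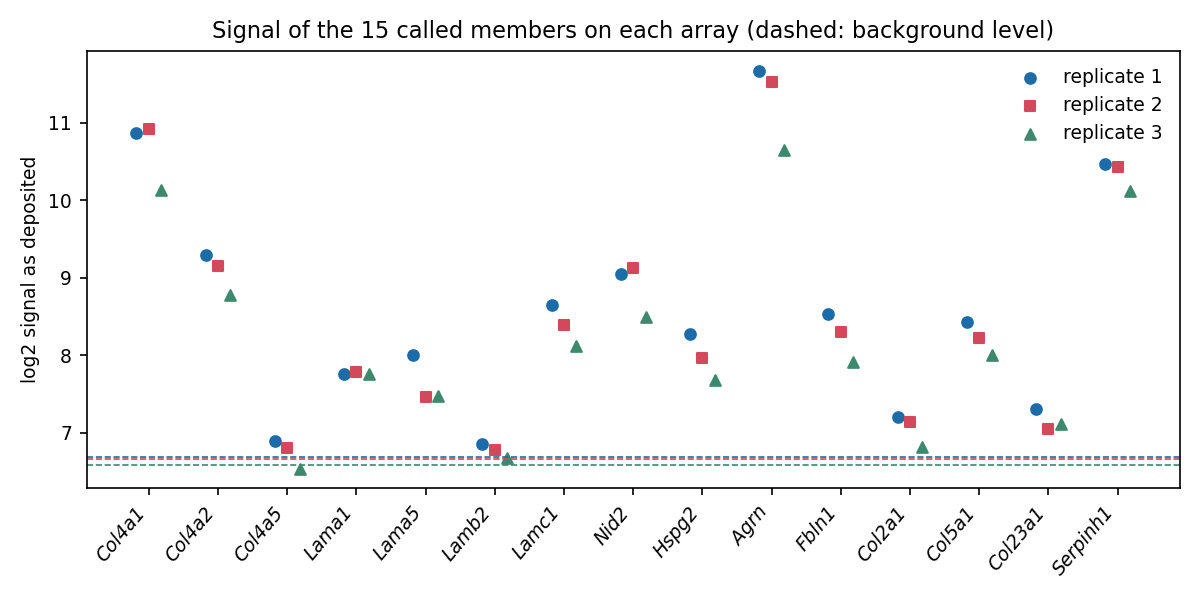
Deposited log2 signal (vertical axis) of each of the 15 called members on replicates 1 (blue circles), 2 (red squares), and 3 (green triangles). Dashed lines give the background level of each array, 6.69, 6.66, and 6.58, and *Col4a5* and *Lamb2* lie closest to them.

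Fibrillar collagens were called for 2 of 10 chains, a share close to the 20.6% of all symbols. *Col5a1*, which nucleates collagen fibrils, had signals of 8.43, 8.22, and 8.01 and a level 2.97 above background (SD 0.09, n = 3). *Col2a1*, the collagen of notochord and cartilage, had 7.20, 7.14, and 6.82 and a level of 1.06 (SD 0.24, n = 3). Both were above the background level on all arrays. *Col1a1*, *Col1a2*, and *Col3a1*, the main collagens of fibroblasts, were called on none. *Col1a1* had detection p-values of 0.197, 0.0695, and 0.0881, *Col1a2* 0.0962, 0.0192, and 0.253, and *Col3a1* 0.0374, 0.569, and 0.328. The mean signals of the 8 uncalled fibrillar chains lay between 6.44 and 6.55. *Col5a2*, the partner of *Col5a1* in collagen V, was among them, as was *Col5a3*.

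Of the collagens that neither form fibrils nor belong to collagen IV, only *Col23a1* of 23 was called on all arrays. The share over all symbols was 20.6%. *Col23a1*, a transmembrane collagen, had signals of 7.31, 7.05, and 7.12 and a level 1.30 above background (SD 0.23, n = 3). *Col16a1*, a fibril-associated (FACIT) collagen with 1 probe, had 7.28, 7.02, and 6.55, with detection p-values of 0, 0, and 0.0192. Its level was 1.34 and 0.98 above background on the former arrays and -0.15 on the latter, so that its call rested on replicates 1 and 2. *Col6a1*, a chain of the beaded filaments around cells, met the limit on replicates 1 and 3, but *Col6a2* and *Col6a3*, the other chains of that trimer, met it on none. *Col7a1* and *Col25a1* met it on 1 array each. All other FACIT, transmembrane, and short-chain collagens had detection p-values above the limit on every array, except *Col9a3* on replicate 3.

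Of the remaining genes, *Serpinh1* and *Fbln1* were called. *Serpinh1* encodes HSP47, the chaperone of the endoplasmic reticulum that binds newly made collagen. Its signals were 10.47, 10.43, and 10.13, with a detection p of 0 on each array and a level 5.41 above background (SD 0.06, n = 3). *Fbln1*, a fibulin of basement membranes and elastic fibers, had 8.53, 8.31, and 7.91 and a level of 3.00 (SD 0.22, n = 3). *Fbln2*, *Fbn1*, *Fbn2*, and *Tnc* were called on no array, with signals between 6.39 and 6.86.

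Several members had a mean signal well above background and no call on all arrays. *Sparc*, a collagen-binding glycoprotein abundant in basement membranes, had signals of 8.21, 8.16, and 7.94, with detection p-values of 0.0203, 0.0142, and 0.000981. *Fn1*, fibronectin, had 8.20, 8.15, and 7.57, with 0.00140, 0.000549, and 0.0178. *Col18a1*, the core of a basement membrane proteoglycan, had 9.54, 9.20, and 9.24, with 6.97e-08, 0.0712, and 0.0236. Their levels above background after normalization were 2.82 (SD 0.04, n = 3), 2.63 (SD 0.32, n = 3), and 4.30 (SD 0.15, n = 3), and they passed the limma test in every setting, with adjusted p-values of at most 6.27e-05 for *Sparc*, 0.00115 for *Fn1*, and 4.05e-05 for *Col18a1*. With the limit at 0.05 *Sparc* and *Fn1* were called and *Col18a1* was not.

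Each of these symbols stands for several probes, 4 for *Sparc* and *Fn1* and 3 for *Col18a1*, counted as the smallest number that makes the mean bead numbers whole. The combined detection p of such symbols follows from the sum of the p-values of the probes. A sum could be recovered for part of the values only, as very small and large combined p-values were left out. The sums were compared with the steps that the p of a single probe can take, within a tolerance of 0.02 of a step. With 3 probes 98.3% of 3228 recovered sums lay on them. With 4 probes, where a normal approximation was used, the share was 86.3%, and by chance it would be 4%. The mean detection p per probe obtained in this way was 0.205, 0.184, and 0.0532 for *Sparc*. It was 0.0686, 0.0289, and 0.197 for *Fn1*, and 0.00249, 0.251, and 0.174 for *Col18a1*. On replicate 2, at least 1 probe of *Col18a1* thus had a detection p of 0.251 or more while the mean signal of the symbol was 9.20. *Col9a3*, with 2 probes, had mean values of 0.374, 0.329, and 0.0652 per probe and signals of 7.10, 6.94, and 6.54. Which probe of a gene is the bright one, and which transcripts it reads, cannot be taken from values averaged per symbol.

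**Figure D3:**
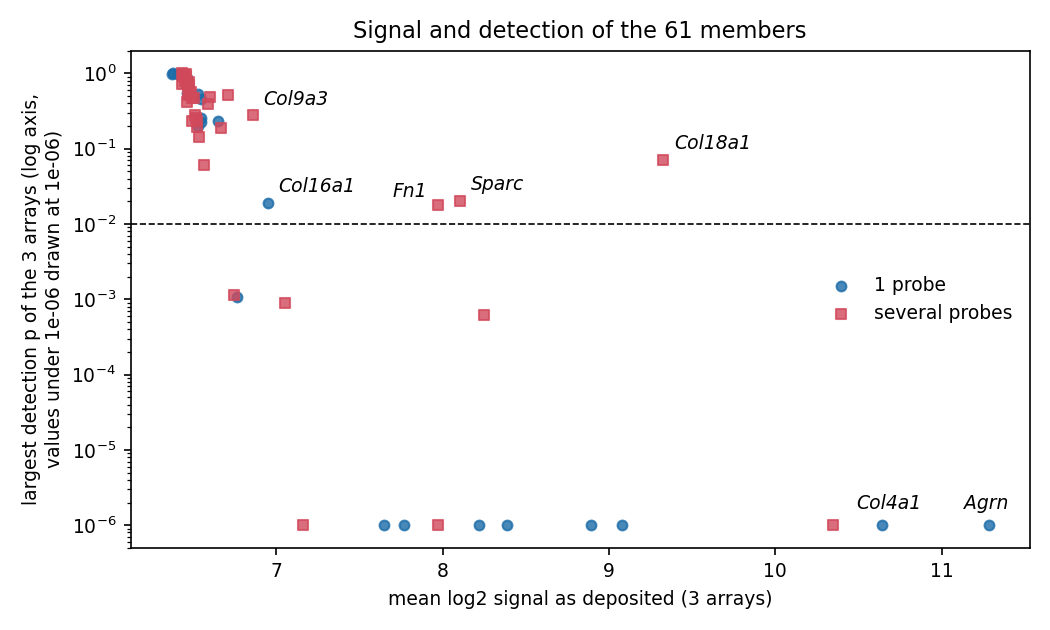
Mean deposited log2 signal (horizontal axis) and the largest detection p of the 3 arrays (vertical log axis, smaller values drawn at 1e-06) for the 61 members, with 1 probe (blue circles) or several (red squares). The dashed line is the limit of 0.01, and *Sparc*, *Fn1*, and *Col18a1* lie above it with mean signals of 8.11, 7.97, and 9.33.

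Called members followed the brightness of the arrays, with exceptions. As deposited, 13 of the 15 were lowest on replicate 3 and 12 were highest on replicate 1. Replicate 3 minus the mean of the others had a median of -0.35 over the members, where the median of all 6357 called symbols was -0.38, with 5th and 95th percentiles of -0.86 and -0.09. *Lama1* differed by -0.01 and *Col23a1* by -0.06, both above that range. *Agrn* differed by -0.96, below it, and *Col4a1* by -0.76, within it. *Lamc1*, the partner of *Lama1* in the laminin trimer, differed by -0.39. The members *Lama5* and *Col23a1* were lowest on replicate 2 instead.

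After quantile normalization, which makes the arrays alike, the called members had a median of -0.08 on replicate 1, 0.02 on replicate 2, and 0.08 on replicate 3 relative to the mean of the other arrays. With median centring instead, the medians were 0.21, 0.07, and -0.23, with the signs on replicates 1 and 3 turned. Over all called symbols the medians after quantile normalization were -0.01, -0.01, and 0.03. Those with median centring are not given, so the members cannot be set against all symbols on that scale. SDs over the arrays were also taken for the normalized signals before the background level was subtracted. Their median was 0.16 for the called members and 0.17 for all called symbols. Among the called members they ranged from 0.03 (*Fbln1*) to 0.39 (*Lama1*). After that subtraction, as given with the levels, the SDs of these genes were 0.22 and 0.19. *Agrn*, *Col2a1*, *Col4a1*, *Col4a5*, and *Nid2* were highest on replicate 2, the array with the highest sum of visceral endoderm markers, and the part of that tissue in their levels was not tested. Another 7 called members were highest on replicate 3, where that sum was lowest, and 3 on replicate 1. In whole embryonic regions, more cells of a type and more RNA per cell cannot be told apart. The standard error over beads, 27 to 55 beads per value for the 9 called members with 1 probe, was 0.05 to 0.15 on the log2 scale, with a median of 0.10. The SD of their deposited signals between arrays had a median of 0.27, with 0.01 for *Lama1* as the lowest value and 0.56 for *Agrn* as the highest.

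**Figure D4:**
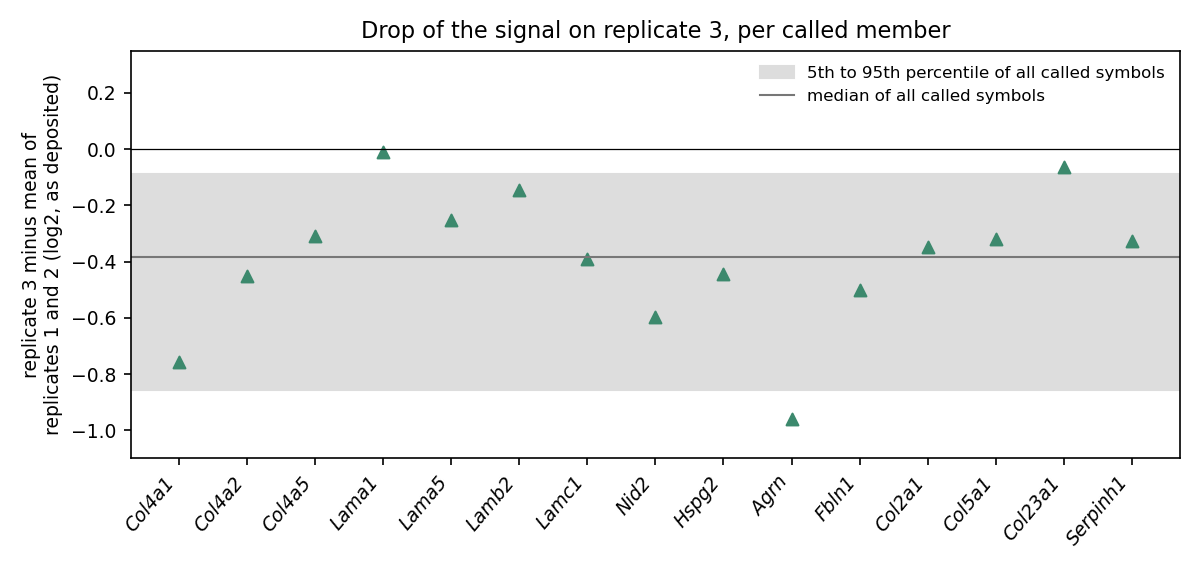
Deposited log2 signal on replicate 3 minus the mean of replicates 1 and 2 (vertical axis) for the 15 called members (triangles). The grey band spans the 5th to 95th percentile of all 6357 called symbols (-0.86 to -0.09) and the grey line is their median (-0.38), and *Lama1* and *Col23a1* lie above the band and *Agrn* below it.

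Of the list of collagen processing genes 15 of 37 were called, where 20.6% of all symbols were. The list holds *Col4a3bp*, a lipid transfer gene, without which the count was 14 of 36. The called genes included *P4hb*, the beta subunit of prolyl 4-hydroxylase, at a mean signal of 12.25 (SD 0.36, n = 3), and *Crtap* and *P3h1*, which act together in prolyl 3-hydroxylation, at 8.57 (SD 0.39) and 6.75 (SD 0.11). Of these, *P3h1* did not pass the limma test, at a level of 0.31 above background (adjusted p = 0.0715). *Plod3*, a lysyl hydroxylase that also glycosylates collagen, was at 8.32 (SD 0.32) and the galactosyltransferase *Colgalt1* at 8.30 (SD 0.53). The collagen-folding isomerases *Ppib*, *Fkbp10*, and *Fkbp14* were at 8.81 (SD 0.17), 7.36 (SD 0.31), and 6.74 (SD 0.02). The remaining called genes were *Pcolce*, *Pcolce2*, *P3h2*, *Sec23a*, *Kdelr3*, *Tmem38b*, and *Col4a3bp*, with mean signals of 6.84 to 7.69. *P4ha1* and *P4ha2*, the catalytic subunits that pair with *P4hb*, were not called on all arrays. *P4ha2* had signals of 7.07, 6.98, and 6.83, with detection p-values of 0.0104, 0.0145, and 0.0804. Its level of 0.87 above background passed the limma test, whereas that of *P4ha1* did not (adjusted p = 0.0846). *Plod2*, *Bmp1*, and *Loxl1*, at levels of 1.40, 0.99, and 0.39, also passed the limma test without a detection call on all arrays. *Lox*, a lysyl oxidase that crosslinks collagen, was called on no array (detection p of 0.743, 0.356, and 0.958).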

How the data were processed

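The arrays were Illumina Mouse-6 bead arrays, and the embryonic part of EHF stage embryos was hybridized in triplicate. The labels name a column-based kit for the RNA, whereas the methods name TRIzol. The authors deposited log2 signals, detection p-values, mean numbers of beads, and standard errors over beads (as linear intensity) per gene symbol, with Partek named for the analysis. The background subtraction, genome build, and rule for averaging probes are not given in the sources used here. The number of columns without a sample was 0. A symbol was counted as having 1 probe where its bead numbers were whole and its detection p lay on the steps set by the number of negative-control probes, within a tolerance of 0.002 of a step (21986 symbols). Signals were background-corrected with normexp from the detection p of these symbols, with an offset of 16, and quantile normalized. Levels above the background level of the array were tested with limma (lmFit, eBayes, one-sided), adjusted over 30854 symbols at a threshold of 0.05. The fit was also tested on simulated data, where it missed the weakest planted levels. All 61 members carry current RefSeq symbols, and 44 were matched in the promoter table. The members and lists were chosen with earlier results of these data known. All members called on every array are named, and of the lists of collagen processing, other matrix genes, and proteases those called. Values of some members are not reported here. Alternatives were other detection limits, scalings, and background levels, fewer arrays, symbols with 1 probe, and leaving out each replicate. Fits were run in limma 3.58.1 under R 4.3.3, and the remaining steps and figures in Python 3.11.15 with pandas 2.3.3, numpy 2.4.6, scipy 1.17.1, and matplotlib 3.10.9.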

Additional observations from a re-analysis of the deposited data

How the results depend on the processing

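The count of 15 members called was 18 with a detection p under 0.05, 13 with one under 0.001 (losing *Col4a5* and *Lamb2*), and 18 on at least 2 arrays. Over all symbols the count of 6357 was 7610, 5249, and 7897 in these settings. The count of members moved to 24 on at least 1 array and to 9 with symbols of 1 probe only. Fewer arrays had to pass there, or fewer symbols were counted, and the counts of all symbols were 10172 and 4578. Without a replicate 15 to 17 members and 6524 to 7427 of all symbols were called, where leaving out an array can only add calls. The 19 members past the limma test became 17 to 22 over the alternatives, and 17 to 21 without a replicate. The 7940 of all symbols past it became 7203 to 8977, and 7402 to 8664 without a replicate. Median centring, which leaves the dimmer range of replicate 3 as it is, gave array differences of the called members of 0.21 for replicate 1 and -0.23 for replicate 3, the reverse of the signs after quantile normalization. For replicate 3 the difference was -0.024 with the members called on at least 1 array. Without a replicate it ranged from -0.10 to -0.06 for replicate 1, from -0.071 to 0.059 for replicate 2, and from 0.07 to 0.10 for replicate 3. Of 160 levels recomputed for 20 named members, 151 stayed on their side of the threshold and none reversed. *Col9a3* failed in 3 settings, *Lamb2* in 3, and *Col16a1* in 1 (median centring), and *Col4a5* passed in 2. Other than where stated, the cause was not tested. No paired analysis was possible because all 3 arrays belong to one condition. What can be called depends on the signal over background, and a mean over probes hides single probes.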

Other observations

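Of 58 other matrix genes on the arrays, 6 were called, *Dag1*, *Efemp2*, *Egfl7*, *Mfap2*, *Smoc1*, and *Vtn*, where 20.6% of all symbols were. *Dag1*, the laminin receptor dystroglycan, had a mean signal of 7.43 (SD 0.07, n = 3), and *Smoc1*, a basement membrane relative of *Sparc*, 8.35 (SD 0.11). *Efemp2*, a fibulin of elastic fibers, was at 7.62 (SD 0.24), the microfibril gene *Mfap2* at 7.50 (SD 0.12), the endothelial secreted factor *Egfl7* at 8.50 (SD 0.38), and vitronectin (*Vtn*) at 6.98 (SD 0.18). *Postn*, *Dcn*, *Lum*, and *Eln*, genes of fibroblast matrix, were called on no array.

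Of 27 matrix proteases and inhibitors on the arrays, 7 were called, where 20.6% of all symbols were. *Mmp2*, a gelatinase that cleaves collagen IV, had a mean signal of 9.07 (SD 0.19, n = 3), *Mmp15* 7.77 (SD 0.36), *Mmp11* 6.79 (SD 0.17), and *Mmp17* 6.75 (SD 0.19). *Mmp17* lay close to background, at a level of 0.27 that did not pass the limma test (adjusted p = 0.123). The inhibitors *Timp1* and *Timp2* were at 7.13 (SD 0.25) and 8.0 (SD 0.22), and the serine protease *Htra1* at 6.93 (SD 0.24). *Mmp14*, the membrane protease that activates the *Mmp2* product, had signals of 8.19, 7.72, and 7.75 from several probes but detection p-values of 0.309, 0.0318, and 0.0521. The normalized level of *Mmp14* was 2.50 above background and passed the limma test without a detection call.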
